A study of Homo sapiens with 151 samples.

Results

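The regions described here are stretches of the HepG2 genome that carry peaks of a moderate number of DNA-associated proteins (DAPs) and lie away from the starts of genes. HepG2 is a human liver cancer cell line, and each DAP was tagged with FLAG at its own gene and mapped by ChIP-seq, in which DNA bound by the tagged protein is recovered and sequenced. The central 100 bp of every peak in the 121 preferred lists were merged wherever they overlapped or touched, which gave 212005 regions. A region was kept as a member when peaks of 6 to 30 different lists fell in it and its midpoint lay more than 2 kb from every transcription start site (TSS) of a protein-coding or lncRNA gene in GENCODE 44. This left 15233 members, 7.19% of all regions, which hold 213954 peaks, 15.2% of those in the preferred lists.

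All lists come from this cell line without a treatment, and each is the single list of 1 DAP, so there are no replicate lists. Of the 127 lists, 106 are preferred lists of transcription factors (TFs), 15 are preferred lists of DAPs that are not TFs, and 6 are non-preferred lists, among them EP300. The lists were called against 24 input libraries, and 116 of the 127 used a single one. The preferred lists hold 195 to 61748 peaks, with a median of 8680. The depth of sequencing behind them is unknown. The members were chosen on the number of preferred lists and the distance to a TSS, so neither is a result. The readouts that the choice did not use are the non-preferred lists, the DNA sequence, the peak signal and which genes lie nearby. The positions of TSSs set the 2 kb limit, so places and distances relative to genes are not free of the choice. The peak signal does belong to the same peaks that the choice counted.

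Distal elements such as enhancers are bound by many TFs that recognise short DNA motifs, and these recruit coactivators that bind no DNA themselves. EP300 is a histone acetyltransferase of this kind and is widely used as a mark of active enhancers. In hepatocytes, distal elements are bound by HNF4, C/EBP and forkhead (FOXA) factors, which maintain the liver program, while AP-1 and TEAD factors answer growth and stress signals. CTCF shapes chromosome loops and is often found at sites that are not enhancers.

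Members with a motif near the midpoint show what the regions look like in sequence. For each of 8 motifs, the stretch printed is the 101 bp around the midpoint of the member with an EP300 peak and the most lists (27 or 30), with the motif match in capitals, on the plus strand of hg38, 5′ to 3′. These regions illustrate the match and were picked for it.
HNF4 member, chr10:116057010-116057110: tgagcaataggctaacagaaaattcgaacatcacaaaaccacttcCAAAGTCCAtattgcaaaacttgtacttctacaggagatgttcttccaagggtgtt
CEBP member, chr1:183699897-183699997: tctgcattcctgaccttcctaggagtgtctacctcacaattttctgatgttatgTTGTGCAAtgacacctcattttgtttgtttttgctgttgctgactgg
Forkhead member, chr17:50890813-50890913: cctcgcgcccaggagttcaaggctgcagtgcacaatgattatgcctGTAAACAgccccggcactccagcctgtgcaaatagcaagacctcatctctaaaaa
AP-1 member, chr1:234684353-234684453: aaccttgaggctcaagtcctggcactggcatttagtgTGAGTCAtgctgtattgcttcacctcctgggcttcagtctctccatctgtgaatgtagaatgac
TEAD member, chr16:52408561-52408661: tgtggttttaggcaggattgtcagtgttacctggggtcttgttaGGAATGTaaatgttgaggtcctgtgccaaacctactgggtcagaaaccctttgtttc
CTCF member, chr14:67729297-67729397: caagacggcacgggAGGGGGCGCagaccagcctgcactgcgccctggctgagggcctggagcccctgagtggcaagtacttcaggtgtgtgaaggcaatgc
E-box member, chr17:47952451-47952551: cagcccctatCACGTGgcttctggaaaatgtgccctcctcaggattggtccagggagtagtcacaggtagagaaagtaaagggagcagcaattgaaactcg
ETS member, chr15:78825836-78825936: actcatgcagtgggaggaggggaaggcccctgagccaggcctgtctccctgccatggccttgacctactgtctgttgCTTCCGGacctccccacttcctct

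The HNF4 member (30 lists) lies in an exon of GFRA1, 147709 bp from the nearest TSS, and its lists include NCOA2, ZMYM2, ZMYM4 and ZFHX3. The CEBP member (30 lists) lies in an intron of RGL1 and the forkhead member (30 lists) in an intron of TOB1-AS1. The AP-1 member (30 lists) lies in an intron of a gene without a symbol and is bound by FOSL1, an AP-1 subunit, beside NCOA2, MED12 and KAT6A. The TEAD member (30 lists) is intergenic. The CTCF member (27 lists) lies in an exon, 2183 bp from the TSS of RDH12, and has ZFP91 and GLYR1 among its lists but neither NCOA2 nor MED12. It also holds MGA, PEG3 and ZFHX3. It is not typical of its kind, since only 1 of the 169 members with a CTCF match held ZFHX3 and only 8 had EP300. The E-box member (30 lists) is in an exon at PRR15L and is bound by MGA, a bHLH protein that binds this motif with MAX. The ETS member (30 lists) lies in an intron of MORF4L1 and is bound by ELK3, an ETS factor.

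The members lay at introns, exons and distances to a TSS in shares close to those of other distal regions. Of the members, 54.6% (8320) had their midpoint in an intron, 39.2% (5977) between genes and 6.14% (936) in an exon, against 56.9%, 37.1% and 6.05% of distal regions of 1 to 5 lists. The median distance to the nearest TSS was 11036 bp for members, 11179 bp for distal regions of 1 to 5 lists and 9885 bp for distal regions of 31 or more lists. Members lay close to each other in places: 28.5% of neighbouring midpoints (4334 of 15210) were under 10 kb apart, while the median gap was 33446 bp. The median member was 304 bp long and held 11 lists, drawn from a median of 8 input libraries. In 377 members (2.48%), at least 50% of the lists shared 1 input library.

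Chromosome 20 had the highest density, 16.8 members per Mb of sequence, followed by chromosome 17 (12.1) and chromosome 16 (12.1), while chromosome 4 had 2.34, chromosome X 0.943 and chromosome Y none. Distal regions of 1 to 5 lists followed a like order, with 146 per Mb on chromosome 20 and 16.7 on chromosome 4. Members made up between 9.59% (chromosome X) and 13.9% (chromosome 19) of distal regions on every chromosome but Y. HepG2 has gained copies of several chromosomes, chromosome 20 among them, and copy number was not measured here.

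EP300 lay in 5483 of the 15233 members, 35.99% (95% Wilson interval 35.2 to 36.8), where its peaks lay in 7.59% of all merged regions. The interval speaks to the counting of regions alone, and regions that lie together are not independent. The share was 22.8% in members of 6 to 10 lists, 43.4% for 11 to 20 lists and 62.5% for 21 to 30 lists. Among distal regions of 1 to 5 lists it was 2.18%, and among those of 31 or more lists 74.2%. TSS-near regions of 6 to 30 lists, with a midpoint within 2 kb of a TSS, had an EP300 peak in 14.5% of cases. Members carried EP300 more often than TSS-near regions with the same range of lists, and less often than the most bound distal regions.

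Across the limits of list number and distance the shares lay close together. It was 14.4% for distal regions of 5 lists and 16.6% for members of 6 lists, then 68.7% for members of 30 lists and 70.9% for regions of 31 lists. At the distance limit it was 29.6% for members 2 to 2.5 kb from a TSS and 26.8% for regions of the same range of list numbers at 1.5 to 2 kb.

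To ask whether these differences held across the genome, each was computed on each of the 22 autosomes and tested with an exact sign-flip permutation test over all sign patterns of the autosomes (two-sided, smallest possible p 4.8e-07, adjusted by Benjamini-Hochberg over the 3 comparisons). The autosomes share the same lists, so these p-values measure how even a difference is along the genome, not how it would vary between experiments. The EP300 share of members was higher by 35.6 ± 6.99 percentage points (mean ± SD over autosomes) than that of distal regions of 1 to 5 lists and by 23.1 ± 7.62 points than that of TSS-near regions, both on 22 of 22 autosomes. It was lower by 37.7 points than that of distal regions of 31 or more lists (difference -37.7 ± 7.96), again on every autosome, and the adjusted p was 4.8e-07 in all 3 comparisons. At matched list numbers the difference from TSS-near regions was 16.3 points for 6 to 10 lists, 28.0 points for 11 to 20 and 43.3 points for 21 to 30. The median length moved with these shares across list numbers, from 100 bp for distal regions of 1 to 5 lists to 606 bp for 31 or more, and its part in them was not tested. TSS-near regions, with the lower share, were longer than members (median 364 bp).

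**Figure D1:**
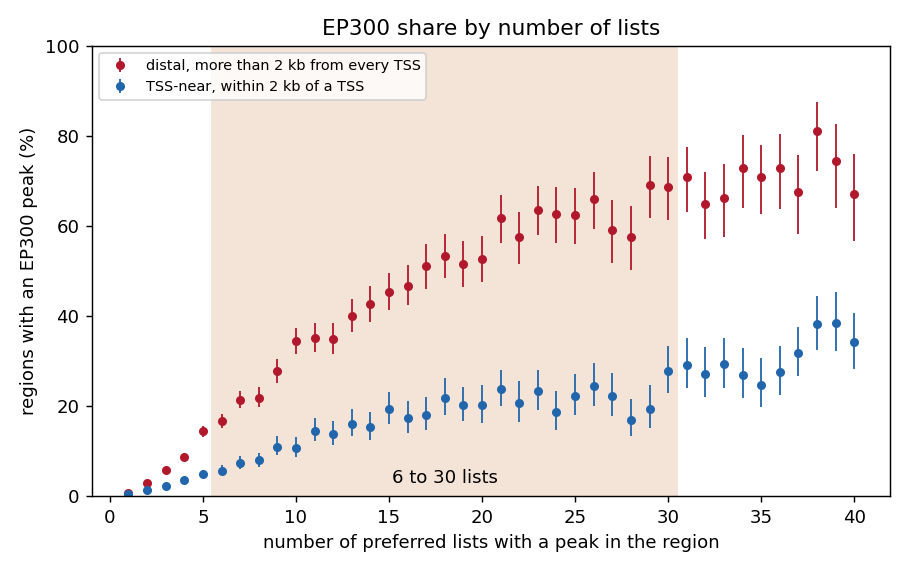
Percent of merged regions with an EP300 peak (vertical axis) by the number of preferred lists in the region (horizontal axis), for distal regions (red) and TSS-near regions (blue), with 95% Wilson intervals and the range of 6 to 30 lists shaded. Inside the shaded range the distal shares run from 16.6% at 6 lists to 68.7% at 30 lists, above the TSS-near shares at every list number.

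Base composition differed between the members and the other classes, and the EP300 share of members differed with it. The mean GC content of the 200 bp at the midpoint was 52.5% ± 8.47 (SD over regions) in members, against 62.2% in TSS-near regions of 6 to 30 lists, 56.0% in distal regions of 31 or more lists and 49.9% in distal regions of 1 to 5 lists. Over autosomes, members were lower by 9.74 points than TSS-near regions (difference -9.74 ± 1.94) and by 3.80 points than the most bound distal regions (difference -3.80 ± 1.42). They were higher than sparsely bound distal regions by 2.67 ± 0.616 points. All 3 differences held on 22 of 22 autosomes (exact sign-flip permutation test, adjusted p = 4.8e-07 each). Windows with GC above 50% and an observed over expected CpG ratio above 0.6, the base composition of CpG islands, made up 6.97% of members and 52.0% of TSS-near regions.

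Within the members, 63.8% of those with GC below 45% had an EP300 peak (1853 of 2905), against 39.1% at 45 to 55% (2563 of 6555), 20.7% at 55 to 65% (941 of 4545) and 10.3% at 65% or more (126 of 1228). The median list number was 10 to 12 in all 4 bins. AT-rich members of 21 to 30 lists reached 86.7%, and GC-rich members of 6 to 10 lists were at 4.26%. EP300 peaks were also more frequent in introns (40.3%) than between genes (31.9%) or in exons (24.3%), whose mean GC content was 51.3%, 53.7% and 55.7% in the same order. The share was 45.9% for members over 50 kb from a TSS and 31.5% for those 2 to 5 kb away. These strata are given as descriptions.

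The comparison with TSS-near regions was therefore repeated inside each GC bin, an alternative added after the data were seen. Members kept the higher EP300 share in all 4 bins: 63.8% against 48.4% below 45% GC, 39.1% against 27.4% at 45 to 55%, 20.7% against 14.1% at 55 to 65%, and 10.3% against 5.22% at 65% or more. The mean differences over autosomes were 13.8, 13.1, 7.87 and 4.83 points, smaller than the 23.1 points without the bins, with adjusted p-values of 2.3e-06 to 9.7e-05 (exact sign-flip permutation test, 12 comparisons). The differences from sparsely and from highly bound distal regions also kept their direction in every bin.

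**Figure D2:**
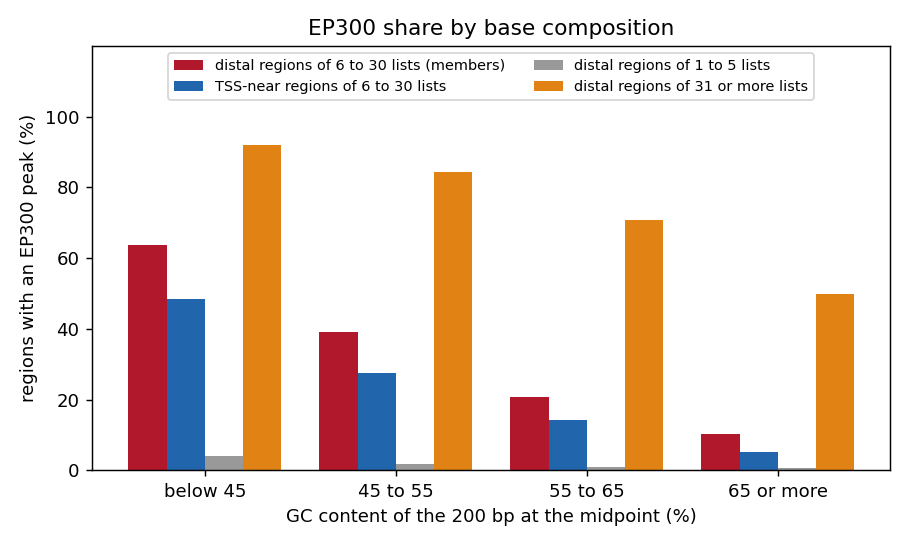
Percent of regions with an EP300 peak (vertical axis) in 4 bins of GC content of the 200 bp at the midpoint (horizontal axis), for members, TSS-near regions of 6 to 30 lists and the other distal classes. Member shares fall with GC from 63.8% to 10.3% and lie above the TSS-near bars in each bin.

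The other non-preferred lists gave the members smaller shares. ZNF431 lay in 11.7% of members, against 63.3% of distal regions of 31 or more lists, 0.588% of those of 1 to 5 lists and 14.9% of TSS-near regions. TSC22D2 lay in 11.5% of members and 11.6% of TSS-near regions, TUT4 in 7.46% and 5.66%, and ZZZ3 in 5.36% and 10.4%. GPBP1L1 had a peak in only 2 members. EP300 was the non-preferred list whose share in members stood farthest above that in TSS-near regions.

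The 200 bp at each midpoint were searched on both strands for TF motifs. The flanks were windows of the same length 1000 bp to either side. The motifs of liver factors were CAAAGTCCA (HNF4), TTAATNATT (HNF1), TTGCNNAA (CEBP) and TGTTTAC (forkhead). Those of signal-dependent factors were TGANTCA (AP-1), ACATTCC (TEAD), TTCNNNGAA (STAT) and GAANNTTC (heat shock). Those common at promoters were CACGTG (E-box), CCGGAAG (ETS), GGGGCGGGG (GC box), GCGCATGCG (NRF1) and AAGATGGCG (YY1). The others were AGGGGGCGC (CTCF), GGACAGCGC (RE1), ATGCAAAT (octamer), TGATTGACA (PBX-MEIS), TTGGC and GCCAA 5 bases apart (NFI), AGGTCA repeated 1 base (DR1) or 4 bases (DR4) apart, and TCCC and GGGA 2 bases apart (EBF). DR1 and DR4 share their repeat.

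Of the 21 motifs, 15 (71.4%) were more frequent at the midpoints than in the flanks and 1 (4.76%) was less frequent (exact sign-flip permutation test over autosomes, adjusted over 21 motifs). A match to any of the 4 liver motifs lay in 3456 members, 22.7% (95% Wilson interval 22.03 to 23.36), against 12.6% of their flanks, where 14% of all merged regions hold one. The difference was 10.5 ± 3.70 points, on 22 of 22 autosomes (adjusted p = 7.2e-07). Members also exceeded TSS-near regions of 6 to 30 lists, with 22.7% against 10.2% (difference 12.7 ± 4.19 points, adjusted p = 7.2e-07). Inside GC bins this difference was smaller, with 7.30 points below 45% GC, 3.30 at 45 to 55%, 3.98 at 55 to 65% and 0.334 at 65% or more, where it did not pass (exact sign-flip permutation test, adjusted p = 0.605). The difference from distal regions of 31 or more lists, 22.7% against 19.9%, did not pass the exact sign-flip permutation test (3.35 ± 7.98 points, higher on 14 of 22 autosomes, adjusted p = 0.0595). Distal regions of 5 lists, just below the limit, held a liver motif in 23.4% of cases.

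The HNF4 match lay in 2.19% of members (333), 7.57 times its flank share, where 0.884% of all regions hold it. The forkhead match lay in 8.28% (1262 members, 3.35 times the flanks, all regions 4.12%), and the CEBP match in 12.99% (1979 members, 1.43 times, all regions 8.98%). The AP-1 match lay in 10.8% (1645 members, 1.86 times, all regions 6.95%) and the TEAD match in 4.39% (669 members, 1.67 times, all regions 3.04%). In distal regions of 31 or more lists the shares were 1.59% for HNF4, 8.1% for forkhead, 11.4% for CEBP, 9.17% for AP-1 and 4.13% for TEAD. In members these 5 motifs were above the flanks on 21 or 22 of the 22 autosomes, with adjusted p-values of 1.4e-06 to 5e-06 (exact sign-flip permutation test). HNF1, whose factor is a hepatocyte regulator too, had 1.18% at midpoints, 0.997 times the flanks (adjusted p = 0.88). STAT, heat shock, YY1 and DR4 did not pass the test either, and the octamer was below the flanks (0.762%, 0.643 times, adjusted p = 0.00703).

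CTCF had the steepest rise over its flanks, 13.5 times, in 1.11% of members (169), against 2.09% of TSS-near regions and 1.03% of distal regions of 31 or more lists. The promoter motifs E-box (5.62%), ETS (2.18%) and GC box (1.02%) were 2.1, 2.62 and 2.01 times as frequent as in the flanks. They were less frequent in members than in TSS-near regions, at 6.28%, 5.40% and 6.91%. Distal regions of 31 or more lists held these 3 motifs at 8.29%, 2.94% and 2.26%. NFI, DR1, NRF1 and PBX-MEIS passed the test on 8, 8, 10 and 30 members, and these calls rest on that few matches. The liver and signal motifs were nearly as frequent at 6 to 10 lists as at 21 to 30 lists: forkhead went 8.03%, 8.56% and 8.48% over the 3 bins, and AP-1 11.1%, 10.4% and 10.9%.

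**Figure D3:**
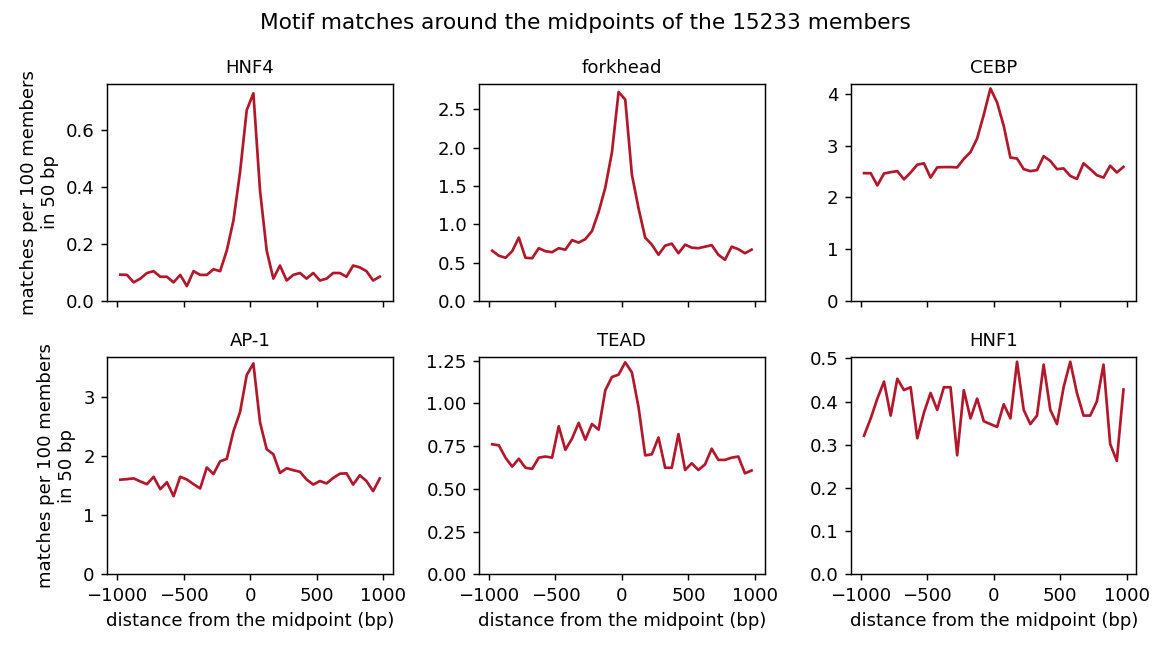
Matches of 6 motifs per 100 members in 50 bp bins (vertical axes, each from 0) by distance from the member's midpoint (horizontal axes, bp). HNF4, forkhead, CEBP, AP-1 and TEAD matches rise at the midpoint, forkhead to 2.72 per 100 members 25 bp before it, while HNF1 shows no rise (0.348 in the same bin).

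The EP300 share of members differed by the motif they held. Of members with an AP-1 match, 54.7% had an EP300 peak (900 of 1645, interval 52.3 to 57.1), against 33.7% of the rest. The shares were 52.8% with a TEAD match, 52.0% with a forkhead match, 50.2% with a CEBP match and 48.6% with an HNF4 match. With a CTCF match the share was 4.73% (8 of 169, interval 2.42 to 9.06), against 36.3% of the rest. Members with no liver motif had EP300 in 32.0% of cases, those with 1 kind in 48.9% and those with 2 kinds in 58.2%.

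Because the EP300 share differed with the number of lists, the mean share of members with the same list number was subtracted first. Of 12 motifs with at least 100 members and 15 autosomes, 6 (50.0%) then had a higher EP300 share and 4 (33.3%) a lower one (exact sign-flip permutation test, adjusted over 12). The differences were 20.4 ± 4.98 points for AP-1, 15.9 ± 6.67 for forkhead, 15.6 ± 10.9 for TEAD, 14.4 ± 5.34 for CEBP, 11.7 ± 10.9 for HNF4 and 10.1 ± 9.0 for STAT. They were -29.9 ± 13.4 for CTCF, -15.9 ± 10.6 for the GC box, -8.06 ± 9.54 for ETS and -6.98 ± 9.75 for the E-box. GC content moved with these motifs, with means from 47.8% in CEBP members to 63.9% in GC box members. To account for GC too, the mean share of members in the same bin of list number and the same bin of GC was subtracted. These bins are coarser than the single list numbers used before, so list number was matched less closely. When list number and GC were both accounted for, AP-1 (15.2 ± 4.71 points), TEAD (11.6 ± 10.8), forkhead (6.34 ± 5.47), CEBP (3.87 ± 5.33) and CTCF (-12.1 ± 9.0) still passed the test (adjusted p 5.7e-06 to 0.00488). HNF4, STAT, E-box, ETS and GC box no longer did.

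The lists found in the members were unequal in size. SALL1, a zinc finger TF of the spalt family, had a peak in 85.3% of members (12995), and ZBTB12, a BTB zinc finger protein, in 74.7% (11386). ZMYM4, an MYM-type zinc finger protein, followed with 60.6%, POU2F1 (Oct-1) with 59.99%, NCOA2, a coactivator of nuclear receptors, with 57.0%, and MGA with 50.3%. The next were E2F8, an atypical E2F repressor (42.8%), MED12, a Mediator subunit (34.7%), ZFP91 (33.9%), MEIS2, a TALE homeodomain TF (29.4%), SMAD7, an inhibitory SMAD (27.3%), and HIC2 (25.4%). The median list held 4.18% of members and 24 lists held under 1%. The 10 most frequent lists gave 41.8% of all 192810 occurrences of a list in a member. Since the long lists decide which regions reach 6, the number of members was recounted without each of the 5 longest and stayed between 13711 (without SALL1) and 14767 (without MGA).

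NCOA2 differed most between members and TSS-near regions of the same range of list numbers: it lay in 57.0% of members and 26.7% of TSS-near regions, 30.3 points more, with the same direction on 22 of 22 autosomes. SALL1 (15.7 points), ZMYM4 (13.3), ZFHX3, a zinc finger homeobox TF (12.6), ZBTB12 (12.1), ZMYM2 (10.99), MED12 (9.04) and FOSL1 (7.47) were also more frequent in members on every autosome. ZFHX3 was in 19.5% of members and FOSL1 in 12.6%. SRY, an HMG box TF, was in 8.72% of members and 22.2% of TSS-near regions, the largest difference in the other direction (-13.52 points). ZNF701, a KRAB zinc finger protein (-13.03 points), ZFP91 (-12.3), HES4, a bHLH factor of the HES family (-12.3), STAT5A (-11.9) and E4F1 (-11.9) were less frequent in members too, each of these 6 lists on 21 or 22 autosomes. In all, 30 of the 121 lists were more frequent in members and 91 in TSS-near regions. These are descriptions, since the lists themselves define the members. List number was not matched within the range: 2263 of the 15233 members held 21 to 30 lists, against 3157 of 13846 TSS-near regions.

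**Figure D4:**
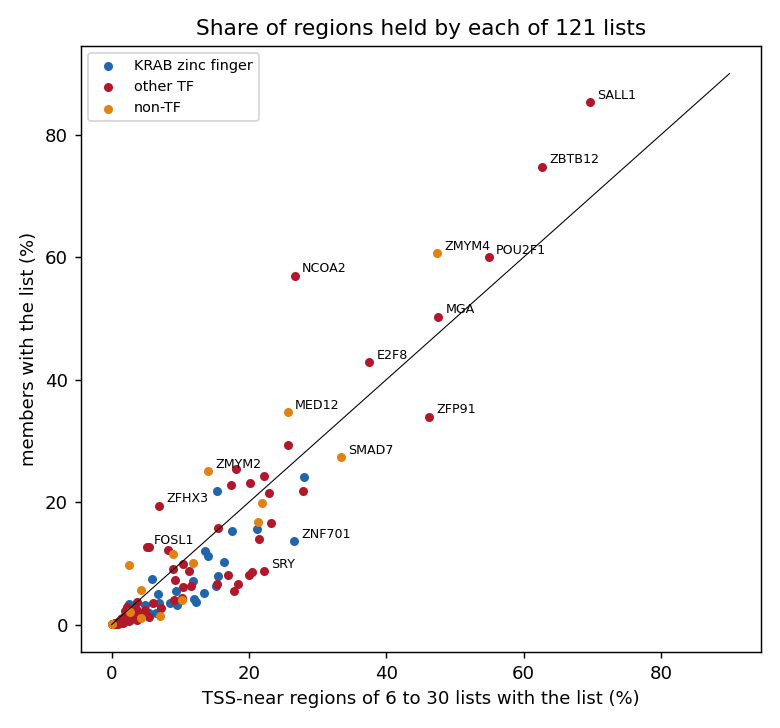
Percent of members (vertical axis) against percent of TSS-near regions of 6 to 30 lists (horizontal axis) that hold each of the 121 preferred lists, coloured by class, with the line of equal shares. NCOA2 lies farthest above the line (57.0% of members), and ZFP91 and ZNF701 lie below it.

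As a share of each list's own distal peaks, members took most from ZNF544 (56.2%), MED12 (56.0%), MEIS2 (55.6%), POU2F1 (53.9%), E2F8 (53.1%) and BAZ2A (51.3%). They took least from ZNF865 (11.4%), ZNF75D (15.8%), THAP1 (17.8%), NFIB (19%), CAMTA1 (21.4%) and ZFAT (21.5%), among the 105 lists with at least 500 distal peaks. The 34 lists of KRAB zinc finger proteins, a family known mostly as repressors that bind retroelements, gave 30.1% ± 10.3 of their distal peaks to members, and the 72 other TF lists 31.8% ± 11.8 (SD over lists). The difference of -1.64 points is smaller than the spread between lists in either class. Within 5 input libraries that served at least 2 lists of each class, the difference was positive in 4 and averaged 4.18 points. These shares are built from the peaks that chose the members and are given as a description.

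Peaks in members were of middling strength within their own lists. Each peak was ranked by signal within its list, from 0 to 100, and the median rank was taken per list. The median ranks averaged 44.96 in members, against 63.9 in distal regions of 31 or more lists and 32.3 in distal regions of 1 to 5 lists. Peaks in members ranked lower than those in the most bound regions in 117 of 119 lists (difference -18.95 ± 7.59, SD over lists) and higher than those in sparsely bound regions in 110 of 119 (12.6 ± 10.7). Both differences passed a sign-flip permutation test over lists (p = 1e-05, the smallest that 100000 draws can give). The lists are read over the same regions and share input libraries. This p-value thus measures how even a difference is over lists, not how it would vary between experiments. The ranked peaks are also those that set the list number, so rank and list number are not separate measures. FOSL1 (median rank 67.7), NCOA2 (66.5), SALL1 (65) and ZFHX3 (62.0) had strong peaks in members for their lists, and THAP1 (30.7) had weak ones.

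Lists with a known motif were compared inside the members to see whether the DAP's own motif marked the members it bound. Of 20 pairs of list and motif, 7 (35.0%) had the motif more often where the list was bound and 3 (15%) less often (exact sign-flip permutation test, adjusted over 20). FOSL1 gave the clearest case: 49.1% of its 1922 members held an AP-1 match, against 5.27% of the other members (44.1 ± 6.42 points, 22 of 22 autosomes, adjusted p = 3.2e-06). MLXIP, a glucose-responsive bHLH factor, had an E-box in 20.4% of its members, against 5.06% of the rest (15.7 ± 9.76 points). MGA had an E-box in 8.71% against 2.50%, and ELK3 an ETS motif in 5.99% against 1.88%. MEIS1 and MEIS2 with the PBX-MEIS motif and POU2F1 with the octamer also passed, on shares under 1% (0.625%, 0.469% and 0.919% of bound members).

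In the other pairs, the motif was less frequent where the list was bound, or the difference did not pass the test. FOXC1 held a forkhead match in 5.84% of its members, against 8.77% of the rest (-2.41 ± 2.77 points, adjusted p = 0.00288), although forkhead motifs were frequent in members in general. STAT5A held a STAT match in 2.92%, against 5.64% (exact sign-flip permutation test, adjusted p = 0.0321). GC content was not accounted for in any of these pairs. Mean GC was 56.0% in FOXC1 members, against 51.8% without it, and 62.6% in STAT5A members, against 51.6%. Members with a forkhead match had 48.2% and those with a STAT match 49.5%. The part of GC in these lower shares was not tested. ZNF148 also passed as lower for the GC box, but only 1 of its 146 members had the motif. The pairs of TEAD2, FOXO4, NFIB, PBX3, HSF4, NR1H2, EBF1, ELK4, NPAS2 and KLF15 with their motifs did not pass the test, with 35 to 1230 bound members each. Counted over all members, the motif share was higher where bound for TEAD2, NFIB, PBX3, NR1H2, EBF1, ELK4 and KLF15. It was lower for FOXO4, HSF4 and NPAS2. ELK4 was compared on only 2 autosomes and NR1H2 had 1 bound member with its motif, too few for the test to decide.

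Seen from the motif, the members of each kind were bound by different sets of lists, described here without a test. Of the 169 members with a CTCF match, 62.7% carried ZFP91, 46.2% GLYR1, a nucleosome-binding factor, and 44.4% SMAD7, against 33.6%, 21.5% and 27.1% of the other members. NCOA2 was in 15.98% of them, MED12 in 8.28% and ZFHX3 in 0.592%, against 57.5%, 35.0% and 19.7% of the other members. Forkhead members carried more NCOA2 (78.1% against 55.1%), E2F8 (57.6% against 41.5%) and ZFHX3 (33.8% against 18.1%). HNF4 members carried more ZMYM2 (41.1% against 24.7%), NCOA2 (69.4% against 56.7%) and ZMYM4 (71.8% against 60.4%). AP-1 members carried more FOSL1 (57.4% against 7.20%) and less ZMYM4 (52.5% against 61.6%). CEBP members carried more NCOA2 (74.4% against 54.4%) and TRIM24, a bromodomain coregulator (20.6% against 8.18%). In E-box members MGA reached 77.9% against 48.6%.

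EP300 was also read in members with and without each list. The test took the 85 lists that had at least 200 members and could be compared on at least 15 autosomes. Of these, 30 (35.3%) had a higher EP300 share where they were bound and 47 (55.3%) a lower one, once the list number was accounted for (exact sign-flip permutation test, adjusted over 85). Without that step, 45 were higher and 23 lower. The step centres the shares at each list number, so nothing is read from the balance of higher and lower lists. EP300 lay in 57.2% of the 8681 members with NCOA2 and in 7.86% of the 6552 without it. FOSL1 members had EP300 in 72.0% of cases, those of PEG3 in 69.2%, of KAT6A, a histone acetyltransferase, in 69.0%, of ZFHX3 in 68.2%, of TRIM24 in 65.2% and of MED12 in 64.8%. At the other end were STAT5A (13.4% of 1234 members), HES4 (14.1% of 842), ZNF85 (19.1% of 294), ZNF528 (19.7% of 834) and ZNF74 (20.4% of 1567). Of 25 KRAB zinc finger lists, 7 were higher and 17 lower, and ZNF544 (63.9% of 3327 members) was the highest of them.

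With list number accounted for, the differences were 39.6 ± 6.44 points for NCOA2, 33.5 ± 3.87 for FOSL1, 30.2 ± 5.03 for MED12 and 29.5 ± 6.55 for ZFHX3. They were -33.2 ± 8.78 points for STAT5A and -32.9 ± 12.9 for HES4 (adjusted p = 1.7e-06 for each of these 6). NCOA2 members had a mean GC of 49.2%, against 56.9% without it, and STAT5A members 62.6%, against 51.6%. GC was accounted for as well by the bins of list number and GC used for the motifs. The differences were then 24.3 ± 4.95 points for NCOA2, 24.03 ± 4.04 for FOSL1, 21.3 ± 4.34 for MED12 and 12.4 ± 5.09 for ZFHX3. They were -10.2 ± 6.35 points for STAT5A and -15.1 ± 12.8 for HES4, and all 6 passed. With these bins 22 lists were higher and 41 lower, of which 19 and 37 had the same call before. The sign of the difference changed for 8 lists. POU2F1 was the only one that passed with both signs, at -3.48 ± 5.72 points with list number and 2.74 ± 4.92 points with list number and GC accounted for. Such changes mix GC with the coarser matching of list number. SALL1 went from 7.85 to 9.85 points although mean GC was 52.5% with it and 52.6% without it. Of the 12 highest lists, NCOA2, KAT6A, ZNF544, PRMT5, SLC30A9, EBF1 and ZNF140 were among 13 preferred lists that share an input library with EP300. FOSL1, MED12, ZFHX3, PEG3 and TRIM24 were not. Of the other tested lists that share it, ZFP90 was higher with list number accounted for, and REV3L, NPAS2 and TTF1 were lower. The part of a shared input in the differences by list was not tested. When members were rebuilt without those 13 lists, the differences between members and the other classes kept their direction (36.3, -35.4 and 23.7 points). That rebuild compares classes of regions, not members with and without a list.

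**Figure D5:**
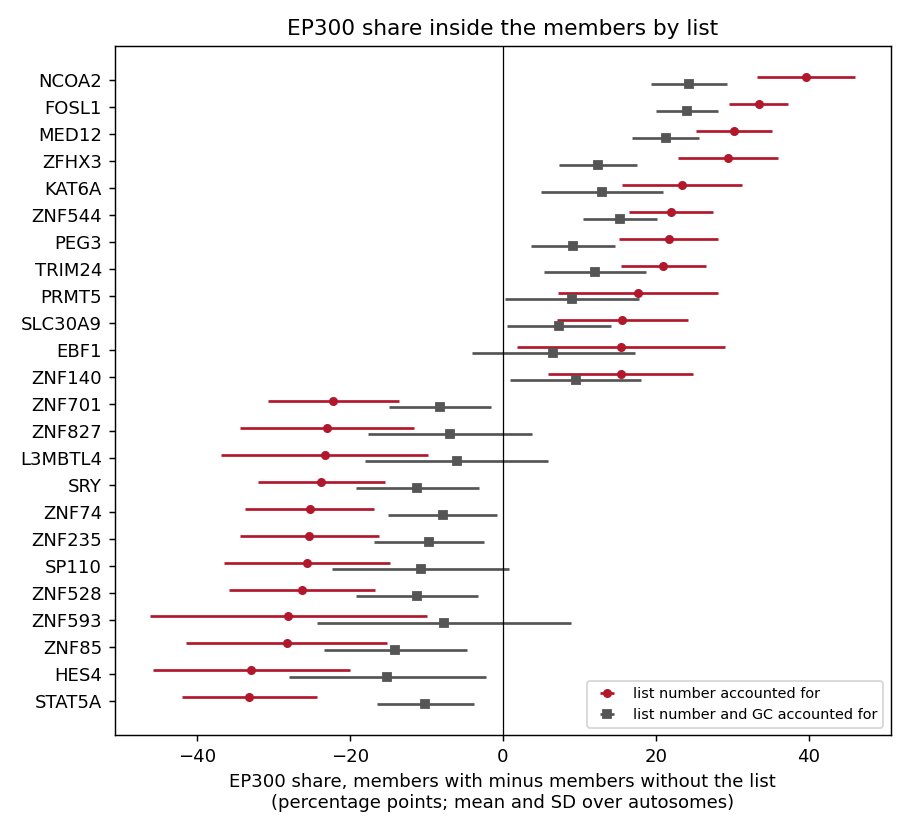
Difference in EP300 share between members with and without a list (horizontal axis, percentage points, mean and SD over autosomes) for the 12 highest and 12 lowest of 85 lists (vertical axis), with list number accounted for (circles) and with list number and GC accounted for in coarser bins (squares). The differences run from 39.6 points for NCOA2 to -33.2 points for STAT5A, and the squares lie nearer to 0.

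Lists also met each other in the members more or less often than their sizes give, described by phi, the correlation of 2 lists over the 15233 members. Over 1499 pairs of lists that share at least 200 members the median phi was 0.0594, and 188 pairs were negative. Pairs that meet in fewer members were left out, so nothing is read from the balance of signs. Members also differ in list number, which phi does not account for. The highest was MED12 with NCOA2 (phi 0.37), which shared 4339 members, 82.1% of those of MED12 and 50.0% of those of NCOA2. ZNF646 and ZNF865 (0.317) shared 655 members, 35.5% and 43.3% of theirs, and use the same input library. NCOA2 with ZFHX3 (0.299), SALL1 with ZBTB12 (0.28), STAT5A with ZNF74 (0.272), MED12 with ZFHX3 (0.271), ZBTB12 with ZMYM4 (0.258) and NCOA2 with ZMYM4 (0.257) came next. STAT5A with ZNF74 shared 3.7 times as many members as their sizes give. The lowest among the pairs kept was STAT5A with NCOA2 (phi -0.196), with 299 members, 24.2% of those of STAT5A. The median phi was 0.113 for the 108 pairs that share an input library and 0.0558 for the other pairs.

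Members were counted around 6 lists of genes, without a test. The mean number within 100 kb of a TSS was 6.04 ± 5.25 (SD over genes) for 24 genes of hepatocyte function, 6.45 ± 4.61 for 20 genes of liver TFs and 7.62 ± 5.54 for 16 genes of signalling and growth. It was 3.38 ± 2.55 for 16 genes of cholesterol and lipid metabolism, 3.35 ± 4.02 for 20 genes of other tissues, 2.70 ± 3.79 for 20 housekeeping genes and 1.97 ± 2.62 for all 20033 protein-coding genes. At least 5 members lay within this distance of 13 of 24 hepatocyte genes (54.2%), 12 of 20 liver TF genes (60%) and 11 of 16 signalling genes (68.8%), against 14.2% of all protein-coding genes. Some listed genes are neighbours whose windows overlap, so the same members are counted for more than 1 gene. FGA, FGB and FGG had 9 each, and ALB and AFP 7 each. The genes of a list are therefore not independent counts. The ratio of a list's mean to that of all protein-coding genes changed with the distance. For hepatocyte genes it was 5.04 at 50 kb, 3.07 at 100 kb and 1.71 at 250 kb, where it was also 1.71 for cholesterol and lipid genes and 1.61 for genes of other tissues. For signalling genes it was 4.97 at 50 kb, 3.87 at 100 kb and 2.01 at 250 kb, and for liver TF genes 3.78, 3.27 and 2.45. Within 100 kb, no liver TF gene and no signalling gene was without a member, while 39.1% of all protein-coding genes were. Genes of other tissues were above the background too, with 6 of 20 (30%) at 5 or more, among them PRM1 (13) and INS (10, beside IGF2).

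Around ALB, the gene of serum albumin, 7 members lay within 100 kb. The nearest (169 bp) was intergenic, 15162 bp upstream of the TSS, and was bound by KAT6A, MED12, NCOA2, SALL1, ZFHX3 and ZNF816, the smallest number a member can have, together with EP300. Its sequence holds a CEBP and a forkhead match, in capitals below, and was chosen after its values were seen, because 4 of its 6 lists (KAT6A, MED12, NCOA2 and ZFHX3) were among those with high EP300 shares.
Member nearest ALB, chr4:73389041-73389209: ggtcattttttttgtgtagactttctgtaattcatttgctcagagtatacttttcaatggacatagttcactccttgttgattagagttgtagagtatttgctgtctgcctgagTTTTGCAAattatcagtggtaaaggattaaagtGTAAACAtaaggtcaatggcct

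Some of the nearest members of other hepatocyte genes held many more lists. The nearest members of the 21 hepatocyte genes that had one held 6 to 29 lists, with a median of 11. APOC3, which encodes an apolipoprotein of triglyceride-rich particles, had a member of 28 lists 4027 bp downstream of its TSS (chr11:116833842-116834026) with an E-box and without EP300. Near APOA1, the main protein of HDL, a member of 25 lists 3425 bp upstream (chr11:116840705-116841388) carried EP300. CPS1, the first enzyme of the urea cycle, had 27 lists and EP300 in an intronic member 15103 bp upstream of its canonical TSS (chr2:210541321-210541671) with a CEBP match. TF, the gene of transferrin, had 26 lists and EP300 in a member 12912 bp upstream (chr3:133733353-133733609), with a median signal rank of 68.0. Of the 21 nearest members of hepatocyte genes, 10 had an EP300 peak, where 35.99% of all members had one. RBP4, F2 and F9 had no member within 100 kb.

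Of the nearest members of the 20 liver TF genes, 5 had an EP300 peak, where 35.99% of all members had one. CEBPA, a founding member of the C/EBP family, had 13 members within 100 kb, the nearest (25 lists, with EP300) 8837 bp downstream of its TSS with a CEBP match in its sequence (chr19:33293355-33294038). NR5A2, a nuclear receptor of bile acid synthesis, had an intronic member of 27 lists with EP300 (chr1:200040640-200040999). HNF4A had 16 members within 100 kb, and the nearest held 9 lists and no EP300 peak. CEBPB had 17, the most in this group.

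Among genes of cholesterol and lipid metabolism, SCD, a desaturase of fatty acids, had a member of 21 lists with EP300 and a TEAD match (chr10:100342120-100342882). The nearest member of MVD held 24 lists and no EP300 peak. SREBF2 and INSIG1 had no member within 100 kb. Of the nearest members of the other 14 genes of this list, 5 had an EP300 peak, where 35.99% of all members had one. Of the signalling genes, VEGFA had 19 members, DUSP1 15 and IER3 13. CCND1, a cyclin of the cell cycle, had a member of 26 lists with EP300 and an AP-1 match 13863 bp downstream (chr11:69654691-69655347). IGFBP1 had a member of 30 lists without EP300, 2225 bp downstream (chr7:45890257-45891168). Of the nearest members of the 16 signalling genes, 6 had an EP300 peak.

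The window of 100 kb with most members (23, chr14:35331900-35422779) lies at NFKBIA, an inhibitor of NF-kappaB, and 4 of its members had EP300. The next (21 members, chr2:21005373-21092662) covers APOB, the apolipoprotein of LDL, where 8 members lay in exons and 9 in introns, 2 had EP300, and AFF1, a subunit of the super elongation complex, was the most frequent list (13 of 21). The third (19 members, chr17:50852210-50950154) lies at TOB1, with 5 EP300 peaks. Over all members, EP300 lay in 32.4% of those with 6 or more other members within 50 kb and in 35.4% of those with none.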

How the data were processed

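Peak lists of 127 FLAG-tagged DAPs in HepG2 were used. The authors deposited optimal peak lists on hg38, made against input libraries with the pipeline of ENCODE. For aligner and caller, names were not given in the sources used here. The deposited score runs from 540 to 1000, and the deposited signal, the enrichment of each peak, was ranked within its own list because nothing puts lists on a common scale. The deposited q column was below 0 in 43 lists and was handled as a score of unstated scale. Each list was counted once per region.

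Peaks were merged, annotated with GENCODE 44 and scanned on the hg38 reference using scipy 1.17.1, pandas 2.3.3 and numpy 2.4.6 under Python 3.11.15. A non-preferred list counted as present where the central 100 bp of its peak overlapped a region. Sequence windows were 200 bp at the midpoint. Differences were tested over the 22 autosomes (all 4194304 sign patterns) or over lists (100000 draws), two-sided, with Benjamini-Hochberg adjustment and a threshold of 0.05. Autosomes with fewer than 5 members in an arm were left out of tests by motif or list. The calculations were tested on simulated data.

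The members and lists were chosen with earlier results of these data known. Lists named are the 12 with most members, the 6 highest and 6 lowest shares of own distal peaks, the 8 pairs with the highest phi, all lists with a motif pair and the non-preferred lists. Regions named are the nearest members of listed genes, the members printed by motif and the 3 densest windows. Lists named for EP300, for TSS-near regions or within a motif were chosen after their values were seen, from those with large differences, and are not complete rankings. Alternatives changed the centre of a peak, the merging, the score threshold, the TSS distance and set, the lists used, the window and the bins of GC. Histone marks, accessibility, repeats and expression were not analysed here. Results for some of the listed genes are not reported here.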

Additional observations from a re-analysis of the deposited data

Results flagged for a closer look

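Lists of 1 protein family were compared on the share of distal peaks in members, the EP300 share and the signal rank, which gave 15 groups. In these, 2 lists lay far from the rest of their family by Dixon's criterion, of which chance gives about 1 in 20 groups. Among 7 coactivator and Mediator lists, MED13L had EP300 in 25.6% of the members it bound (156 members), against 50.7% to 69.0% for the other 6, MED12 among them. Among 7 lists of winged helix TFs, ELK4 had a median signal rank of 32.9 in members, on 38 peaks, against 41.8 to 47.6 for the others. Their causes were not tested.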

How the results depend on the processing

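The EP300 and GC differences kept their direction and passed the test under every alternative run. With a score of 830 or more, 8679 members were left, since fewer peaks entered. The liver motif difference from distal regions of 31 or more lists passed the test with windows of 100 bp (2.77 points, adjusted p = 0.00783) and at 5 kb from a TSS (3.47 points, adjusted p = 0.0468). In GC bins it turned to -5.11 (below 45%), -2.63 (45 to 55%) and -2.40 points (65% or more), and was 2.01 points at 55 to 65%. Of these, only the lower share at 65% or more passed the exact sign-flip permutation test (adjusted p = 0.0428). The difference from TSS-near regions was 0.334 points at 65% or more (adjusted p = 0.605). The KRAB difference turned to 4.18 points within input libraries. Without accounting for list number, 23 lists had a lower EP300 share, against 47, and 45 a higher one, against 30, and with GC accounted for 1 motif was lower, against 4. The cause of these changes was not tested. Differences of EP300 share with GC accounted for turned for HNF1 (-6.00), heat shock (-2.15), ETS (3.001) and the GC box (3.02). Pairs of list and motif that turned were, at 100 bp, FOXO4 and forkhead (-0.753), HSF4 and heat shock (0.157), ELK4 and ETS (-1.05) and NPAS2 and E-box (-2.35), and, at 400 bp, EBF1 and EBF (1.00), NPAS2 and E-box (-0.299) and ZNF148 and GC box (1.16). FOXC1 and forkhead (-1.20) and POU2F1 and octamer (0.109) no longer passed at 100 bp. At this window NPAS2 and E-box and EBF1 and EBF (-0.329) passed as lower (exact sign-flip permutation test, adjusted p = 0.00638 each). No paired analysis was possible because each DAP has a single list. The depth of the lists is unknown, so a missing peak does not show a missing protein.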
